A study of Mus musculus with 14 samples.

Results

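The transporters described here carry amino acids and monocarboxylates (lactate, pyruvate, ketone bodies and related acids) across membranes. They were taken from the deposited results table by gene names that begin with Slc1a, Slc3a, Slc6a, Slc7a, Slc16a, Slc36a, Slc38a or Slc43a and a number. Slc1a2 fits this pattern but was left out of the set. The selection gave 76 Ensembl identifiers with 75 distinct symbols among the 37681 genes of the count table, and no measured value was used. It also took in Slc7a6os, a neighbour of Slc7a6 on the opposite strand that is no transporter, and Slc38a9 under both of its identifiers. The liver of 14 mice was sequenced, with 1 library per mouse. The diets were low fat/low sucrose (LFLS, 7 mice) and high fat/high sucrose (HFHS, 7 mice), and the comparison asked which liver transcripts differed between them. No treatment or genotype other than the diet is given in the labels, and the sources used here give no strain, sex, age or duration of feeding. The titles of samples 1 to 4 of each diet begin with the number 1 and those of samples 5 to 7 with the number 2. What this title number marks is not stated in the labels, so it is used below as an added term and as a split, by its name only.

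Liver cells take up amino acids from portal blood for urea, glucose and protein synthesis, and they exchange lactate, pyruvate and ketone bodies with the circulation. SLC1, SLC6 and SLC38 carriers are driven by sodium, SLC36 carriers by protons, and SLC43 carriers are facilitators. SLC7 light chains reach the plasma membrane bound to an SLC3 heavy chain, whereas the cationic amino acid transporters of SLC7 work without one. The SLC16 family is named for the proton-coupled monocarboxylate transporters, but also holds carriers of aromatic amino acids and creatine.

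Sequencing depth ran from 18.2 M to 52.8 M counts per library, M standing for mega. The 12 hepatocyte markers looked at, such as albumin, took 7.53 to 13.0% of each library, and all had more than 3 counts in at least 1 library. Transcripts of the exocrine pancreas took 0.00187 to 0.193% in LFLS and 0.00168 to 0.0514% in HFHS. All 18 of those markers had more than 3 counts in at least 1 library, and 16 had enough counts to be tested. LFLS 2 and HFHS 5 lay over 10 times above the median library in this share. HFHS 1 stood apart in stellate cell markers, 0.0887% against 0.0330 to 0.0424% in the other HFHS libraries, and in bile duct markers, 0.0180% against 0.00546 to 0.00951%. These are bulk tissue values, in which fewer cells of a type and less RNA per cell cannot be told apart.

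Of the 76 genes 51 had enough counts to be tested. On HFHS 2 of them rose, the neutral amino acid transporter relative Slc38a11 and the high-affinity lactate and pyruvate carrier Slc16a7, and none fell, by edgeR's quasi-likelihood test with an adjusted p under 0.05. That is 3.92% of the 51 genes, against 2.81% of all 17223 genes tested. For single directions the shares over all genes were 1.37% higher and 1.44% lower on HFHS. Counts this small, near the share over all genes, are not a result about the transporters as a group. An unadjusted p under 0.05 was reached by 12 of the 51 (23.5%), against 19.6% of all genes. Of these 12 genes 7 were lower on HFHS. DESeq2 called 3 of 63 transporters higher and 0 lower, where it called 103 higher and 170 lower of 22339 genes, and limma voom with quality weights, which called 1716 genes higher and 1558 lower over the whole table, called 5 and 6 transporters. With the title number as an added term (a replicate block) the test called 5 of 51 genes (9.80%), against 8.94% of all genes. Of these 4 were higher on HFHS, where all genes gave 4.38%, and 1 was lower, where all genes gave 4.56%. The 3 added genes were the creatine carrier Slc16a12 and Slc38a6, both higher, and the proton-coupled amino acid carrier Slc36a2, lower.

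Without reaching the threshold singly, most transporters lay on the lower side on HFHS. The log2 fold change was below 0 in 36 of 51 genes (70.6%), with a median of -0.136, while 51.3% of all genes lay below 0 with a median of -0.009. The 12 hepatocyte markers had a median of -0.487, and none of them was called on diet alone. Their part in the transporter values was not tested. With library totals in place of TMM scaling the medians were -0.086 for the transporters and 0.036 for all genes. That scaling called 379 genes higher and 152 lower over the whole table, where TMM called 236 and 248, and it called 3 transporters higher and none lower. By family the median was -0.254 for the 2 SLC3 heavy chains, -0.22 for 7 SLC6 genes and -0.249 for 3 SLC43 genes. It was -0.159 for 4 SLC1 genes, -0.157 for 3 SLC36 genes and -0.132 for 10 SLC7 genes. Within SLC7 it was -0.27 for the 6 light chains tested and -0.128 for 3 cationic transporters. The median was nearer 0 in SLC16 (-0.006 over 12 genes) and SLC38 (-0.043 over 10). These medians describe the sets, and no test was run on them.

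**Figure D1:**
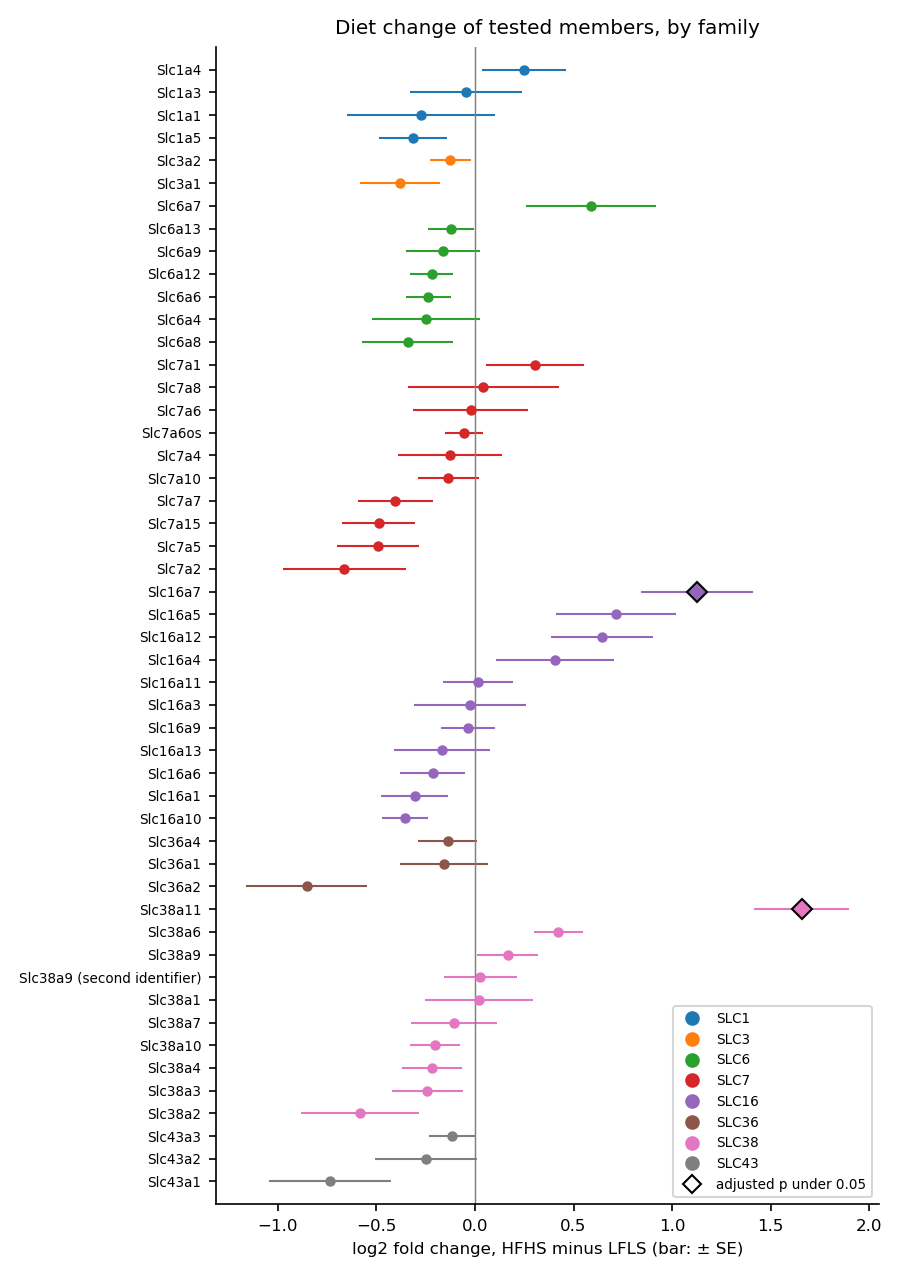
Log2 fold change (HFHS minus LFLS) of 50 of the 51 tested genes on the x axis, grouped by family on the y axis, with bars of 1 standard error. Diamonds mark Slc38a11 (1.66) and Slc16a7 (1.13), the 2 genes with an adjusted p under 0.05, and 36 points lie below 0.

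Slc38a11 (ENSMUSG00000061171), a member of the sodium-coupled neutral amino acid transporter family whose substrate is not well established, showed the largest difference of the 51 tested genes. In CPM (counts scaled to a common library total with TMM factors) it measured 0.721, 1.31 and 2.65 in LFLS (lowest, median and highest of 7) and 3.71, 4.46 and 5.85 in HFHS. The lowest HFHS library exceeded the highest LFLS library. This was the only one of the 51 transporters whose diets did not overlap (1.96%), against 1.65% of all genes. The mean went from 1.48 ± 0.671 to 4.71 ± 0.840 CPM (SD, n = 7 each), a 3.15-fold difference or 1.66 ± 0.24 on the log2 scale (SE), with an edgeR adjusted p of 0.00334. Within title number 1 the log2 fold change was 1.86 (adjusted p 0.00777), and within title number 2, with 3 mice against 3, it was 1.46 (adjusted p 0.102). Without LFLS 2 and HFHS 5, the libraries rich in pancreatic transcripts, it was 1.53 (adjusted p 0.0261).

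**Figure D2:**
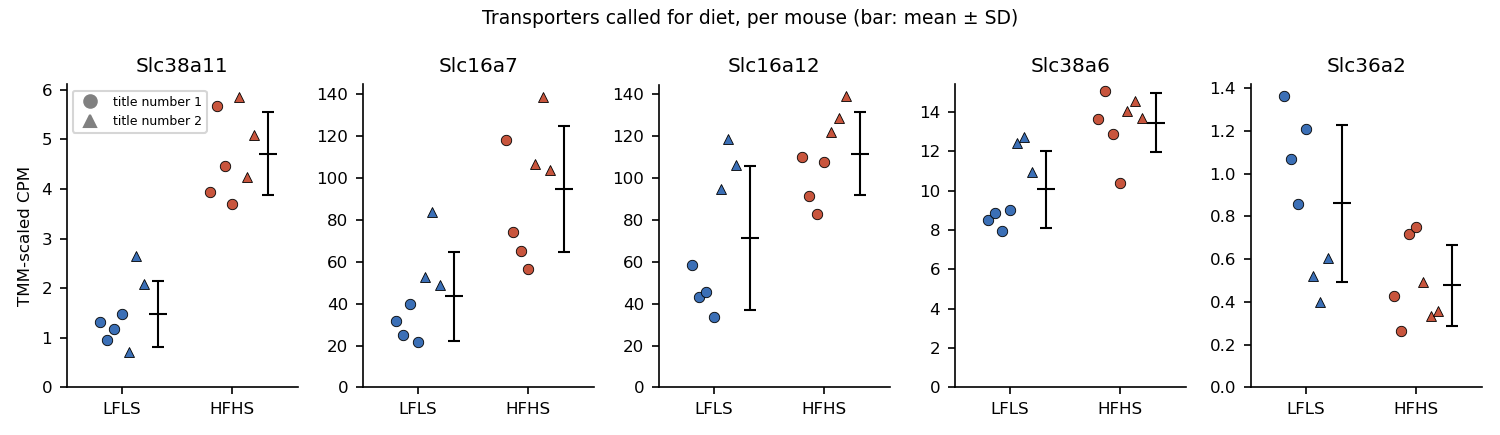
TMM-scaled CPM on the y axis of the 5 genes called for diet, Slc38a11 and Slc16a7 by diet alone and Slc16a12, Slc38a6 and Slc36a2 once the title number was added, with 1 point per mouse on the x axis by diet. Circles are title number 1 and triangles title number 2, and the black bars give the mean ± SD of 7 mice. Only in Slc38a11 do the diets not overlap, with LFLS reaching 2.65 and HFHS starting at 3.71.

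The upstream regions of Slc38a11 and of Slc16a12, described further on, are shown because these genes were higher on HFHS in the same direction while lying far apart in family and level. Slc16a12 was not called on diet alone (edgeR adjusted p 0.182). Slc16a7, which was, had no entry among the promoters used. Both are the 250 bases before the annotated start in RefSeq, build GRCm38.p6, minus strand, written 5′ to 3′ along the gene. The deposited files use the build mm9, so these coordinates belong to the RefSeq build only. Slc38a11 lies at chr2:65364027-65364276 and Slc16a12 at chr19:34747329-34747578. Capitals mark matches to 5 motifs searched on both strands, the GC box GGGCGG, the CCAAT box CCAAT, the TATA box TATAAA, the E-box CACGTG and the C/EBP-ATF element TTGCATCA.
Slc38a11: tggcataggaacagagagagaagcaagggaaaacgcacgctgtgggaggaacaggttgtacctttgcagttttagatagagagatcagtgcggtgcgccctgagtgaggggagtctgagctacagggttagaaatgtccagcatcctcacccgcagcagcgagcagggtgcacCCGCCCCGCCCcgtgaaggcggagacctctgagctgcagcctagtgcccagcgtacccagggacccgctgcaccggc
Slc16a12: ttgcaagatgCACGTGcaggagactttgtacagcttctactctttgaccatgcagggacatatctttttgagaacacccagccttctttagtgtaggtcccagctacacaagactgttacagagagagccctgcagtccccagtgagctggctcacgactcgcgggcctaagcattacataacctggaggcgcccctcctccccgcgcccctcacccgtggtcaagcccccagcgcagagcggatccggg
In Slc38a11 the capitals are 2 GC boxes read on the opposite strand, beginning at -77 and -72 relative to the start and overlapping by 1 base, in a window of 60.8% G and C. In Slc16a12 the capitals are 1 E-box beginning at -240, in a window of 57.6% G and C. A GC box was present in 32.7% of the 32851 RefSeq upstream windows of the same length, an E-box in 6.02%, a CCAAT box in 33.8%, a TATA box in 12.4% and the C/EBP-ATF element in 0.791%. Of the 52 windows that belong to tested transporter genes, 29 held a GC box, 5 an E-box, 15 a CCAAT box, 7 a TATA box and 1 the C/EBP-ATF element. The 2 sequences share no motif of the 5, and the matches are letters only, not sites shown to be bound.

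Among the monocarboxylate transporters the family split evenly, with 6 of 12 tested genes above and 6 below 0. Slc16a7 (ENSMUSG00000020102) measured 21.6, 40.0 and 83.8 CPM in LFLS (lowest, median, highest) and 56.6, 104 and 139 in HFHS. The diets overlapped through LFLS 6, the highest LFLS library, which lay above 3 HFHS libraries. The mean went from 43.4 ± 21.3 to 94.8 ± 30.2 CPM (SD, n = 7 each), 2.18-fold or 1.13 ± 0.28 on the log2 scale (SE), with an edgeR adjusted p of 0.0451. The call was a narrow one. Leaving out any 1 of 11 libraries ended it, with adjusted p from 0.0581 (without LFLS 5) to 0.109 (without HFHS 6) and log2 fold changes of 1.00 to 1.18. Only without LFLS 6, HFHS 3 or HFHS 4 was it kept. The adjusted p was 0.165 without LFLS 2 and HFHS 5, and 0.00404 with the title number added. Within title number 1 the difference was 1.43 (adjusted p 0.0219) and within number 2 it was 0.92 (adjusted p 0.0810). A gene on the other strand, Gm47862, overlaps Slc16a7, and since no label states that strand was kept, their reads cannot be told apart. The same limit holds for other transporters named here, among them Slc3a1 (Prepl), Slc7a2 (Gm26584) and Slc7a10 (Lrp3).

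Slc16a12 (ENSMUSG00000009378), which carries creatine, measured 33.7, 58.2 and 118 CPM in LFLS and 82.9, 110 and 139 in HFHS. The LFLS libraries fell apart by title number, at 33.7 to 58.2 CPM in number 1 and 94.7 to 118 in number 2, and only the second set overlapped HFHS. On diet alone the difference was 0.64 ± 0.26 (log2, SE; adjusted p 0.182), and with the title number added it was 0.76 ± 0.15 (adjusted p 0.0106). It was 1.14 in title number 1 (adjusted p 0.0158) and 0.29 in number 2 (adjusted p 0.187). The difference between these values did not pass the interaction test (adjusted p 0.0704).

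Slc16a10 and Slc16a1 differed less between the diets than Slc16a12 did. Slc16a5, chosen after its values were seen, differed by 0.71 ± 0.30 (log2, SE; edgeR adjusted p 0.208). It measured 23.9 ± 8.77 CPM in LFLS and 39.2 ± 19.3 in HFHS. Slc16a10, a carrier of aromatic amino acids, measured 129 ± 21.0 CPM in LFLS and 101 ± 14.6 in HFHS, -0.36 ± 0.12 on the log2 scale. Slc16a1, which encodes MCT1, the main carrier of lactate and ketone bodies in most tissues, was chosen after its values were seen. It measured 33.9, 52.7 and 82.1 CPM in LFLS and 41.9, 47.7 and 54.8 in HFHS, so all 7 HFHS values lay within the LFLS range. The adjusted p values of Slc16a10 and Slc16a1 were 0.107 and 0.332 by edgeR, while limma voom called Slc16a1 lower. Of the partners, basigin (Bsg), which brings MCT1 to the membrane, averaged 206 CPM in LFLS (158 to 305) and 217 in HFHS (167 to 292), and embigin (Emb), which pairs with MCT2, the Slc16a7 product, 3.85 ± 1.21 and 3.65 ± 0.488. Arl6ip5, a binding protein of glutamate carriers, measured 26.8 ± 3.75 and 25.5 ± 3.80 CPM. None of the 3 partners tested was called, and their log2 differences lay between -0.07 and 0.07.

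The SLC38 family supplied the most abundant transporters. Slc38a3, the glutamine carrier SNAT3 of hepatocytes, measured 1382, 1621 and 3448 CPM in LFLS and 1462, 1515 and 1665 in HFHS. A single library, LFLS 1, set its LFLS spread, since the other 6 LFLS libraries ended at 1790. The log2 fold change was -0.24 ± 0.18 (adjusted p 0.481). Slc38a4, a carrier of neutral amino acids, measured 1593 ± 396 CPM in LFLS and 1371 ± 143 in HFHS, -0.22 ± 0.15 on the log2 scale (adjusted p 0.452). Slc38a6 (ENSMUSG00000044712) measured 7.95, 9.03 and 12.7 CPM in LFLS and 10.4, 13.7 and 15.1 in HFHS. Its highest LFLS values, those of title number 2, overlapped the HFHS range. The log2 fold change was 0.42 ± 0.12 (adjusted p 0.0776), or 0.44 ± 0.10 with the title number added (adjusted p 0.0144). Without LFLS 6 the comparison of the diets alone called it too (adjusted p 0.0378). Slc38a9, the lysosomal arginine sensor that signals to mTORC1, was chosen after its values were seen. Its main identifier measured 11.5 ± 3.36 and 12.9 ± 0.830 CPM (0.17 ± 0.15, adjusted p 0.581), and its second identifier 1.49 ± 0.437 and 1.51 ± 0.140 CPM (adjusted p 0.952). The main identifier averaged 8.91 CPM in LFLS and 12.4 in HFHS within title number 1, where it was called. Within number 2 it averaged 15.0 and 13.7 CPM. The diet difference did not differ between the numbers by the interaction test at the threshold used (adjusted p 0.0504).

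In the SLC7 and SLC3 families 10 of the 12 tested genes, Slc7a6os included, lay below 0 and none was called by edgeR, while limma voom called Slc7a5 and Slc7a7 lower. Slc7a2, the cationic amino acid transporter of liver, measured 351, 993 and 1545 CPM in LFLS and 353, 524 and 873 in HFHS. The log2 fold change of -0.66 ± 0.31 had an adjusted p of 0.255, and the 3 LFLS libraries of title number 2, at 1317 to 1545 CPM, lay above every other library. The heavy chain Slc3a2 measured 27.9 ± 4.46 CPM in LFLS and 25.5 ± 2.36 in HFHS, and the heavy chain Slc3a1 65.6 ± 21.0 and 50.3 ± 13.9. Of the light chains, Slc7a10, a carrier of small neutral amino acids, measured 14.2, 20.7 and 33.3 CPM in LFLS and 17.0, 20.5 and 21.4 in HFHS. Slc7a8, the light chain LAT2, measured 5.37 ± 2.99 and 5.50 ± 2.84 CPM. Slc7a15 measured 5.42 ± 1.40 and 3.87 ± 0.969 CPM, a log2 fold change of -0.49 ± 0.19, the smallest p of its family (adjusted p 0.161). Slc7a5, the large neutral amino acid carrier LAT1, was chosen after its values were seen. It was at 3.14 ± 1.08 and 2.24 ± 0.420 CPM (-0.49 ± 0.21, adjusted p 0.207).

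Slc36a2 (ENSMUSG00000020264), a proton-coupled carrier of small amino acids, was the only transporter that edgeR called lower on HFHS once the title number was added. It was scarce, at 0.401, 0.858 and 1.36 CPM in LFLS and 0.265, 0.427 and 0.749 in HFHS. The 4 LFLS libraries of title number 1 lay above all HFHS libraries, and the 3 of number 2 lay within their range. On diet alone the log2 fold change was -0.85 ± 0.31 (adjusted p 0.139), and with the title number it was -0.83 ± 0.24 (adjusted p 0.0438). With the pair of mice sharing title number and letters as the block in its place the adjusted p was 0.106. Its relatives Slc36a1, a lysosomal exporter, and Slc36a4 measured 46.4 ± 17.3 and 41.6 ± 8.96 CPM, and 18.0 ± 4.78 and 16.3 ± 1.23 CPM, in LFLS and HFHS. Neither was called.

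No gene of the set from the SLC1 (Slc1a2 left out), SLC6 or SLC43 families was called by edgeR, with or without the title number. By limma voom Slc6a8 was called lower. The carriers of GABA, betaine and taurine dominated SLC6. Slc6a13 measured 191 ± 42.7 CPM in LFLS and 175 ± 11.2 in HFHS, Slc6a12 69.6 ± 10.4 and 59.8 ± 7.15, and the taurine transporter Slc6a6 107 ± 16.6 and 90.5 ± 12.5. Of the 7 tested SLC6 genes 6 lay below 0. In SLC1, the neutral amino acid carriers Slc1a4 and Slc1a5 measured 3.26 ± 0.620 and 3.85 ± 1.57 CPM, and 3.71 ± 0.912 and 2.96 ± 0.574, and the glutamate carrier Slc1a3 0.605 ± 0.157 and 0.584 ± 0.288. The sign of the Slc1a3 difference changed with the scaling. Slc43a1, a leucine facilitator known as LAT3, measured 5.83, 10.0 and 20.5 CPM in LFLS and 2.40, 7.73 and 12.4 in HFHS, a log2 fold change of -0.74 ± 0.31 (adjusted p 0.202). Slc43a2 measured 19.7 ± 7.95 and 16.6 ± 6.07 CPM and Slc43a3, which carries purine nucleobases, 42.5 ± 7.21 and 39.2 ± 5.12.

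Levels of different genes were compared per kilobase of exon, averaged over all 14 libraries. Slc38a4 stood at 348 and Slc38a3 at 322 CPM per kilobase, and further down came Slc7a2 at 85.1, Slc6a13 at 63.0 and Slc3a1 at 25.5. Slc38a4 and Slc38a3 lay within the spread of each other's libraries, while both lay above Slc7a2. Of the 2 genes that rose with diet, Slc16a7 stood at 5.84 and Slc38a11 at 0.717 CPM per kilobase. On this scale the heavy chains also differed from each other, with Slc3a1 at 25.5 and Slc3a2 at 7.57. The values of Slc3a1 and Slc7a2 may hold reads of the genes that overlap them on the other strand.

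**Figure D3:**
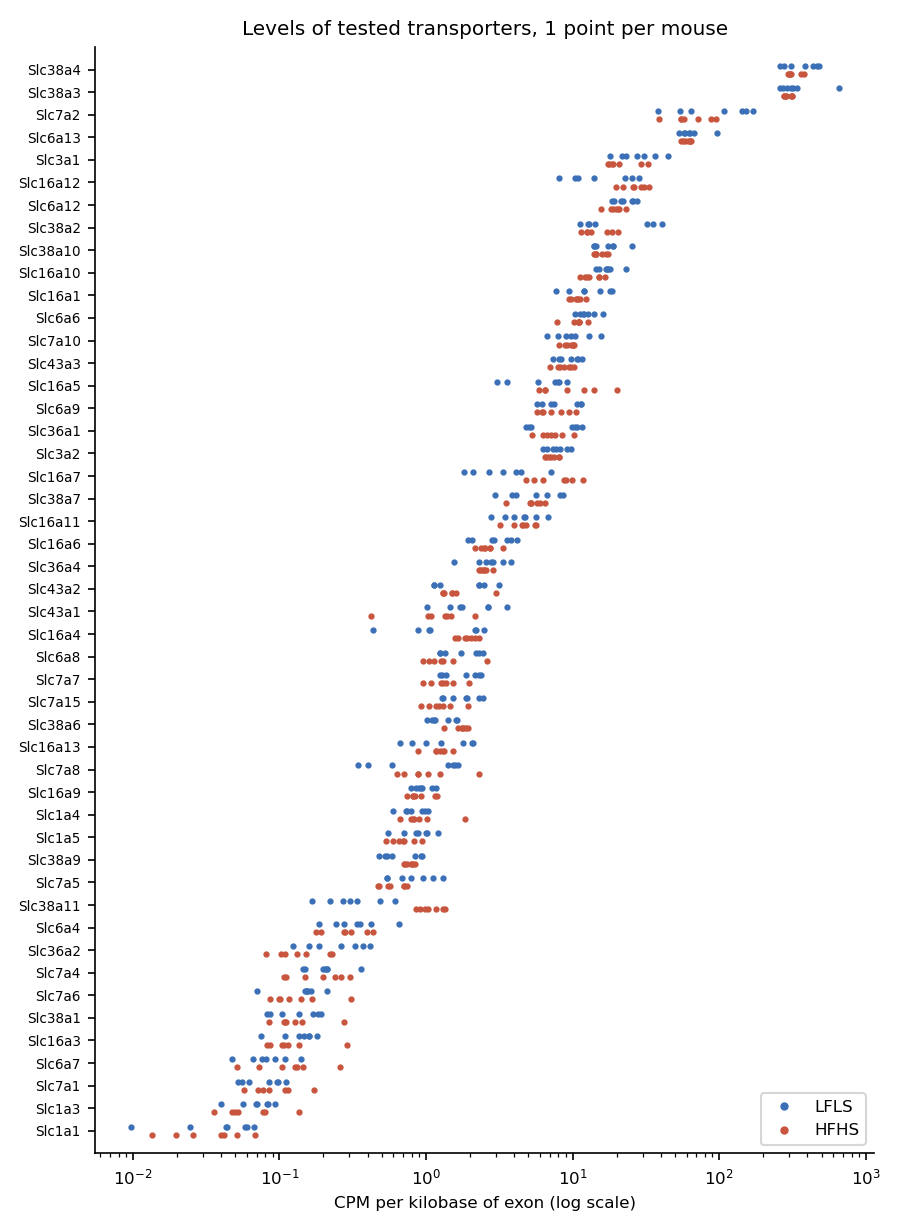
CPM per kilobase of exon (log scale, x axis) of tested transporters (y axis), 1 point per mouse, LFLS above and HFHS below within each row. Slc38a4 and Slc38a3 are highest, Slc1a1 is lowest, and most genes show overlapping diets.

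The title number separated more transporters than the diet did. Comparing number 2 with number 1 in a fit with both terms, 17 of 51 genes (33.3%) were called, 9 higher and 8 lower in number 2, against 28.8% of all genes, so the share was near that of the whole table. Slc38a2, the SNAT2 carrier induced by amino acid shortage, was 1.06 higher in number 2 (log2, adjusted p 0.000596), and Slc7a2 was 0.89 higher (adjusted p 0.0111). Slc7a8 was lower, at -1.33 (adjusted p 0.00245), as was the light chain Slc7a7, at -0.60 (adjusted p 0.00441; chosen after its values were seen). Kupffer cell markers moved with the title number too. Their share was 0.0626 to 0.0667% in the 4 LFLS libraries of number 1 and 0.0269 to 0.0480% in the 3 of number 2, and in HFHS 0.0423 to 0.0701% and 0.0363 to 0.0419%. All 12 of these markers in the table had more than 3 counts in at least 1 library. Other shares moved with the title number in LFLS as well. Hepatocyte markers took 9.13 to 10.2% in number 1 and 11.5 to 13.0% in number 2, and mitochondrial transcripts 1.40 to 3.77% and 4.32 to 4.91%. Sinusoidal endothelial markers took 0.0463 to 0.0607% and 0.0324 to 0.0340%, and erythroid markers 0.0460 to 0.0789% and 0.0298 to 0.0367%. In HFHS the hepatocyte, mitochondrial, endothelial and erythroid shares overlapped between the title numbers. Mitochondrial transcripts there took 4.24 to 5.10% in number 1 and 4.68 to 5.05% in number 2. All 4 LFLS libraries of number 1 lay below every HFHS library in this share. The part of these shares in the difference was not tested.

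For 2 transporters the diet difference itself differed between the title numbers, 3.92% of 51 against 0.883% of all genes. Slc38a2 (ENSMUSG00000022462) measured 99.3 to 125 CPM in LFLS of number 1 and 101 to 117 in HFHS of number 1. In number 2 it measured 283 to 360 CPM in LFLS and 152 to 182 in HFHS. The LFLS mice of number 2 therefore stood highest, and the HFHS mice of number 2 also lay above all mice of number 1. The diets overlapped in number 1 but not in number 2. The diet difference was -0.01 (log2, adjusted p 0.944) in number 1 and -0.94 (adjusted p 0.0181) in number 2, and the interaction was -0.91 (adjusted p 0.0353). Over all 14 libraries the diet difference of Slc38a2 was -0.58 ± 0.30 (adjusted p 0.293). Slc16a4, an SLC16 gene chosen after its values were seen, measured 1.68 to 4.16 CPM in LFLS of number 1 and 8.34 to 9.64 in LFLS of number 2. Its HFHS libraries lay at 6.13 to 8.99 CPM in number 1 and 6.47 to 7.44 in number 2. Here the LFLS mice of number 1 were the low ones, and the diet difference was 1.26 in number 1 (adjusted p 0.0303) and -0.32 in number 2 (adjusted p 0.181). The interaction was -1.58 (adjusted p 0.0462).

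**Figure D4:**
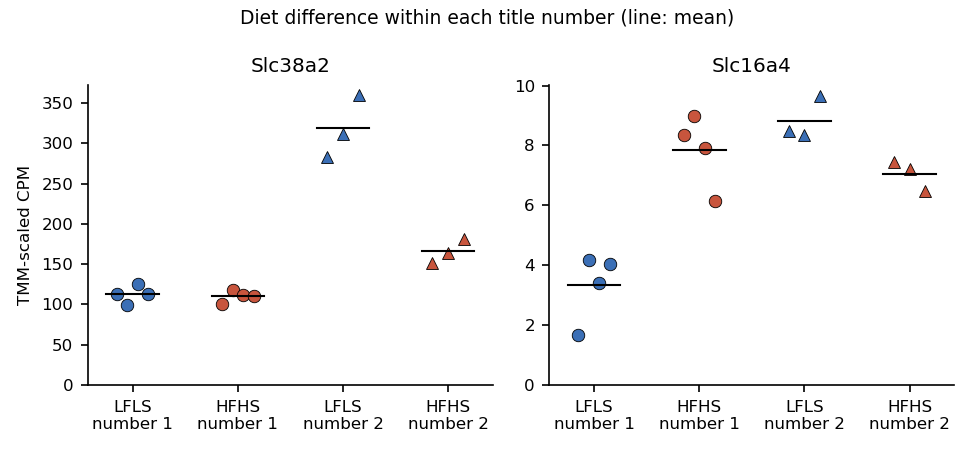
TMM-scaled CPM (y axis) of Slc38a2 and Slc16a4 by diet and title number (x axis), 1 point per mouse with the mean as a line. Slc38a2 is high in the 3 LFLS mice of number 2 (283 to 360), and Slc16a4 is low in the 4 LFLS mice of number 1 (1.68 to 4.16).

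The transporters varied more among LFLS than among HFHS mice. The standard deviation of log2 CPM was larger in LFLS for 39 of 51 genes (76.5%), and for 79.4% of all genes, so this too was shared with the whole table. The median standard deviation was 0.432 in LFLS and 0.279 in HFHS for the transporters, and 0.36 and 0.212 for all genes. Slc38a3 went from 0.448 to 0.0845, Slc16a4 from 0.910 to 0.196 and Slc7a2 from 0.838 to 0.454. These standard deviations pool both title numbers. For Slc16a4, whose LFLS means were 3.33 CPM in number 1 and 8.82 in number 2, the SD of CPM within number 1 was 1.15 in LFLS and 1.23 in HFHS, and within number 2 it was 0.709 and 0.506. Within HFHS 1 library stood out, HFHS 1, which was the highest of its diet in 19 of the 51 genes. For this count no share over all genes is given. HFHS 1 is also the library richest in stellate, bile duct, Kupffer cell and lymphocyte markers and poorest in hepatocyte markers, whose part was not tested. Without it Slc38a11 was the only gene called (1.70, adjusted p 0.00586), and Slc16a7 had an adjusted p of 0.0841.

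**Figure D5:**
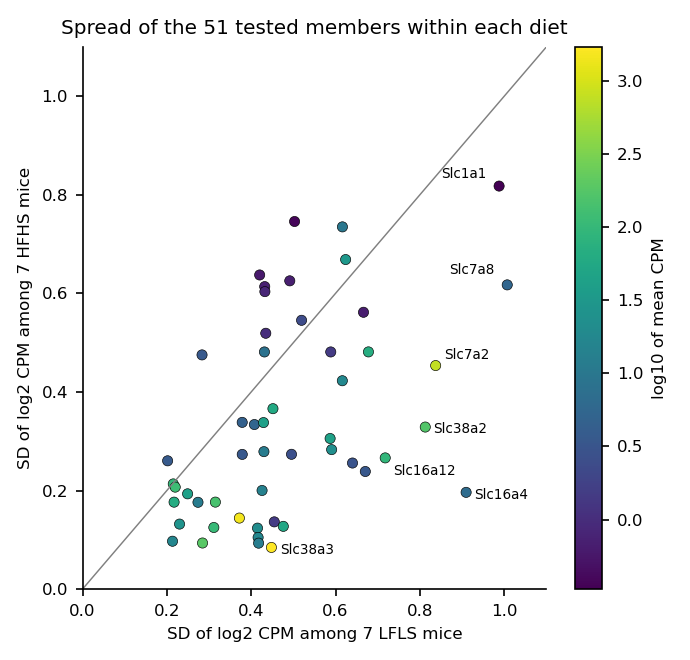
Standard deviation of log2 CPM among the 7 LFLS mice (x axis) and the 7 HFHS mice (y axis), 1 point per tested transporter, coloured by log10 of mean CPM, with the line of equal spread. Of the 51 points 39 lie below the line.

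A further 25 of the 76 genes were too scarce to be tested, and 24 of them never exceeded 10 counts in any library. The lowest value in the table is 1, and 4 of the 25 stood at 1 in every library. Slc6a14, Slc6a15, Slc6a17, Slc6a18, Slc6a19, Slc6a20a and Slc6a20b, carriers of neutral amino acids, were all below the filter. The exception in count was Slc7a11, the cystine and glutamate exchanger, chosen after its values were seen. It had 1 to 9 counts in the LFLS libraries and 61, 19, 7, 3, 13, 12 and 4 in HFHS 1 to 7, so the diets overlapped and HFHS 1 stood highest. DESeq2, which filters less, gave a log2 fold change of 2.03 with an adjusted p of 0.0310, and edgeR without a filter gave 2.03 with an adjusted p of 0.0805.

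Genes that work beside the transporters were taken from 6 lists covering partners, lactate, pyruvate and ketone handling, glutamine and ammonia handling, amino acid sensing by mTORC1, the GCN2 and ATF4 response, and other amino acid carriers. Of 95 distinct genes tested 2 were called (2.11%, against 2.81% of all genes), 1 higher and 1 lower. The mitochondrial glutamate carrier Slc25a22 fell on HFHS, from 281 ± 47.5 to 167 ± 27.5 CPM, -0.75 ± 0.13 on the log2 scale (adjusted p 0.00943). Its LFLS libraries began at 215 CPM and its HFHS libraries ended at 204. Vldlr, a lipoprotein receptor and also an ATF4 target, rose from 1.11 ± 0.823 to 5.78 ± 4.11 CPM (2.35 ± 0.49, adjusted p 0.0219). Leaving out single libraries ended neither call. Without LFLS 2 and HFHS 5 together neither was called, with adjusted p of 0.0611 for Slc25a22 and 0.0831 for Vldlr, though the log2 fold changes of -0.69 and 2.31 were near those of all 14 libraries. Over the whole table that comparison called 44 genes higher and 26 lower, against 236 and 248.

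In the separate lists the counts were 0 of 13 for lactate, pyruvate and ketone handling, 0 of 13 for glutamine and ammonia, 0 of 30 for mTORC1 sensing, 1 of 27 for GCN2 and ATF4 and 1 of 10 for other carriers. The mitochondrial pyruvate carrier subunit Brp44l measured 52.0 ± 14.6 and 73.8 ± 6.41 CPM (0.51 ± 0.15, adjusted p 0.0784), and lactate dehydrogenase A (Ldha) 177 ± 50.3 and 135 ± 13.2 (-0.40 ± 0.16, adjusted p 0.179). Cps1, the entry enzyme of the urea cycle, measured 4340 ± 1550 and 2413 ± 456 CPM (-0.85 ± 0.22, adjusted p 0.0511). Asparagine synthetase (Asns), an ATF4 target, measured 4.17 ± 3.31 and 1.19 ± 0.735 CPM (-1.82 ± 0.51, adjusted p 0.0635). Alanyl-tRNA synthetase (Aars) was at 206 ± 30.3 and 158 ± 12.9 CPM (-0.38 ± 0.10, adjusted p 0.0569). Among the mTORC1 sensing genes Sec13 was at -0.32 ± 0.12 (adjusted p 0.151), and of the other carriers the ornithine carrier Slc25a15 was at -0.46 ± 0.18 (adjusted p 0.166). With the title number added 10 of the 95 were called (10.5%, against 8.94% of all genes), 2 higher and 8 lower on HFHS. Among these were Brp44l, higher (edgeR adjusted p 0.0436), and Cps1 (0.00997), Asns (0.0444), Aars (0.0174) and Slc25a15 (0.0385), all lower. Ldha (0.0933) and Sec13 (0.0919) were not called.

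In the authors' deposited table Slc38a11 was the only 1 of the 76 genes with an adjusted p under 0.05, where 37 of all genes had one. That table lists a log2 fold change of 1.52 and a p of 4.16e-07 for it. For Slc16a7 the authors' deposited table lists a log2 fold change of 1.07 and an adjusted p of 0.64.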

How the data were processed

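RNA from 14 mouse livers was made into polyadenylated RNA libraries with a TruSeq kit and sequenced as single reads, per the labels' protocols. CASAVA 1.8, TopHat, Bowtie and DESeq were used with the build mm9, per the submitters' processing notes, and no source used here gives the counter or the annotation. The deposited counts are whole numbers per Ensembl gene, never below 1, and 11120 genes stand at 1 in every library. The authors' deposited results table holds gene names, signal values that are means of counts divided by size factors, the fold change as a ratio, its log2, and a p-value and adjusted p-value, per the file headers. Its first group is LFLS, since its means lay a median of 0.000367% from recomputed LFLS means and 13.8% from HFHS means.

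Counts of all 37681 genes entered edgeR 4.0.16 in R 4.3.3 (TMM scaling, default low-count filter by diet, quasi-likelihood F test, Benjamini-Hochberg adjustment over 17223 genes, called under 0.05). A standard error is the log2 fold change divided by the square root of F. CPM per kilobase used the union of exons in GENCODE M21. Promoters came from RefSeq, where 52 of the 76 genes had an entry. Libraries are separate mice, so p-values measure spread between animals. On diet alone that spread also holds the difference between the title numbers. Depth was 18.2 M to 52.8 M counts (M for mega) per library. The code was tested on simulated data with 200 changed genes.

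Named genes are those called by diet alone or with the title number added, the 3 most abundant per family, the smallest p per family, all partners, and in other lists the called genes and the 2 with the smallest p. The members and lists were chosen with earlier results of these data known. Alternatives were voom with quality weights in limma 3.58.1, DESeq2 1.42.0, RLE factors, library totals, 2 filters, 1 subtracted from every count, the title number or title pair as a block, each number alone, the pancreatic share as covariate or its 2 high libraries left out, and each library left out. Some genes' results are not reported here.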

Additional observations from a re-analysis of the deposited data

Results flagged for a closer look

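In 52 groups of 7 libraries (26 named genes in each diet), a library at the edge of its group was separated from its neighbour by more of the group's range on the log2 CPM scale than Dixon's critical value for 7 samples in 5 cases, and chance gives about 1 in 20 groups. The highest were Slc38a3 in LFLS 1 (gap 0.717 of the range, 3448 CPM), Slc6a13 in LFLS 1 (0.606, 283 CPM), Slc43a2 in HFHS 1 (0.759, 30.1 CPM) and Slc1a4 in HFHS 1 (0.587, 7.28 CPM). The lowest was Slc38a6 in HFHS 4 (0.575, 10.4 CPM).

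The diet difference in title number 2 minus that in number 1 was -0.911 on the log2 scale for Slc38a2 (edgeR interaction test, adjusted p 0.0353) and -1.579 for Slc16a4 (adjusted p 0.0462).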

How the results depend on the processing

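The count of transporters higher on HFHS, 2, became 5 with limma voom, 4 with the title number as a replicate block, 6 in title number 1 only, 0 in title number 2 only, and 1 with no filter or without the 2 libraries high in pancreatic transcripts, and leaving out each library gave 1 to 3. The count lower, 0, became 6 with limma voom and 1 with the title number as a block or in title number 2 only. The pathway count, 2, became 5 with DESeq2, 21 with limma voom, 4 with library totals or with the pancreatic share as covariate, 10 with the title number block, 6 with the title pair block, 11 in title number 1 only, 4 in title number 2 only and 0 without the pancreas-high libraries, and leaving out each library gave 2 to 7. The counts for the title number, 17, and for its interaction with diet, 2, stayed within 1.5 times under RLE factors and the stricter filter. Over the whole table the genes called higher and lower, 236 and 248 of 17223, also moved, to 1716 and 1558 with limma voom, 755 and 785 with the title number block, 926 and 558 of 17485 in title number 1 only, 134 and 135 of 17010 in title number 2 only, 87 and 86 of 26561 with no filter, and 44 and 26 of 17299 without the pancreas-high libraries. The causes were not tested.

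Pairs of mice sharing title number and letters were correlated over 0.1 in 4 of 7 pairs (-0.0602 to 0.483). Over all mice of different diets the mean correlation was 0.177 within a title number and -0.184 between title numbers. The main diet comparison carries neither a pair term nor the title number. What the mice of a pair share is not stated in the labels. Blocking on the pairs called 3 transporters higher and none lower (328 and 270 of 17223 genes), and Slc36a2 and Slc38a6, called with the title number block, were not called with the pair block (adjusted p 0.106 and 0.0547).

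Signs reversed for Slc1a3 (0.007 with library totals, 0.185 in title number 1 only, 0.002 without pancreas-high libraries, -0.314 to 0.079 when leaving out each library), Slc1a4 (-0.091 with limma voom), Slc7a8 (-0.043 with DESeq2, -0.248 with limma voom, -0.154 in title number 1 only, -0.256 to 0.186 when leaving out each library) and Slc36a4 (0.072 in title number 1 only). In title number 2 only they reversed for Slc36a1 (0.286), Slc3a2 (0.084), Slc43a2 (0.244), Slc6a13 (0.170), Slc6a6 (0.066), Slc7a10 (0.204) and Slc16a4 (-0.322). None of these genes was called on diet alone by edgeR, while limma voom called Slc16a4 (0.722, adjusted p 0.0238). Of the other single-gene values 672 kept direction and side of the threshold, 14 passed it only under the alternative and 15 lost it. Depth limits the scarce genes, 24 of which never exceeded 10 counts.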
